A study of Mus musculus with 36 samples.

Results

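The 10 genes described here make or sense leukotrienes and prostaglandins, the lipid mediators that tighten airways and recruit leukocytes in asthma, and were taken by gene symbol with all their probe sets. Of the 10, 9 had probe sets named in the platform annotation (16 in all) and Ptgs1 was not analysed here. A gene was tested where its brightest probe set, the one with the highest mean, exceeded a log2 value of 5 in at least 3 arrays, which 7 of the 10 did, among 11599 of 18193 genes. Hpgds and Ptgds did not pass.

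The samples were 36 whole lungs of mice on a C57BL/6 background labelled female, 1 single-colour Affymetrix array each. On days 1, 4 and 7 mice were sensitised with ovalbumin (OVA), 50 µg by intraperitoneal injection in a 0.1 ml volume of phosphate-buffered saline (PBS). Weekly intranasal doses of 20 µg OVA in 30 µl began on day 12 and ran for 9 weeks, and controls had PBS throughout. The 5 kinds of mice were wild type (WT), KitWsh mice, which carry the W-sh allele of Kit on both chromosomes and lack mast cells, and KitWsh mice with the engraftment codes MC, MCifngR or MCigeR. The labels do not spell out these codes, and the genotype label of KitWsh_MCigeR mice names FcεRIγ deficiency, which could belong to the recipient. There were 4 arrays in every OVA group and in WT PBS, and 3 in the remaining PBS groups. Nothing in the labels says that arrays within a group come from different animals, so the p-values reflect only the spread among these samples, which may be technical. In whole lung, fewer cells of a type and less RNA per cell cannot be told apart.

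Leukotriene synthesis begins when 5-lipoxygenase (Alox5), helped by its activating protein (Alox5ap), turns arachidonic acid into leukotriene A4. Leukotriene A4 hydrolase (Lta4h) makes leukotriene B4 from it, a neutrophil attractant, and leukotriene C4 synthase (Ltc4s) makes the first cysteinyl leukotriene, which acts through Cysltr1. The cyclooxygenases Ptgs1 and Ptgs2 open the other branch, whose product is passed to terminal synthases: Ptges for prostaglandin E2, and Hpgds and Ptgds for prostaglandin D2. Mast cells, eosinophils and macrophages are well-known sources in the lung.

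Values are log2 GCRMA intensities, and a difference is OVA minus PBS, or one kind of mouse minus another, ± its standard error. Called genes are those with an adjusted p under 0.05, from limma fitted to all arrays with Benjamini-Hochberg adjustment across the tested genes.

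Some arrays stood apart. KitWsh_MCigeR PBS array 2 had a median correlation with the others of 0.543, against 0.882 to 0.971 for the rest, and a 3' minus 5' beta-actin control difference of 8.43, a sign of degraded RNA, so results are given with and without it. Kit, the gene altered in KitWsh mice, read 9.86 to 10.97 in 7 WT arrays and 4.52 to 7.52 in the 28 KitWsh arrays of all engraftments. The library labelled WT OVA array 4 read 6.90, in the KitWsh range. Its Y-linked genes averaged 7.28, like those of KitWsh_MCifngR OVA arrays 2 and 3 (7.71 and 7.30), although all mice are labelled female. Lung markers were high in every group. Of the 9 mast cell markers, 7 stayed under 5 in every array of the WT and KitWsh groups, 6 in KitWsh_MC PBS against 3 in KitWsh_MC OVA lungs, 5 in KitWsh_MCifngR PBS against 1 in KitWsh_MCifngR OVA lungs, and 7 in KitWsh_MCigeR PBS (the degraded array left out) against 5 in KitWsh_MCigeR OVA lungs. The eosinophil genes Epx, Ccr3 and Il5ra stayed under 5 in every group.

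The genes with the clearest differences were Ptgs2, the inducible cyclooxygenase, and Ptges, the inducible prostaglandin E2 synthase that works downstream of it. Their promoter windows are shown because these are the members called within a single kind of mouse in both the fit to all arrays and the fit without the degraded array. Each window runs from 250 bases before to 50 bases after the RefSeq start (GRCm38.p6), read on the gene's strand, with matches to 6 searched motifs in capitals. The Ptgs2 window is chr1:150099781-150100080 on the plus strand and the Ptges window is chr2:30903248-30903547 on the minus strand.
Ptgs2: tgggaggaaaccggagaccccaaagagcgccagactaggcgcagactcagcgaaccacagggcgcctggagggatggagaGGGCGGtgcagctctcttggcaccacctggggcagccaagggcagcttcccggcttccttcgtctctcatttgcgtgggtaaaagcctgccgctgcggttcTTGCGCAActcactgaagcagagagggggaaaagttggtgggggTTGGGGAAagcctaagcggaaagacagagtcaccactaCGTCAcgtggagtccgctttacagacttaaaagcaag
Ptges: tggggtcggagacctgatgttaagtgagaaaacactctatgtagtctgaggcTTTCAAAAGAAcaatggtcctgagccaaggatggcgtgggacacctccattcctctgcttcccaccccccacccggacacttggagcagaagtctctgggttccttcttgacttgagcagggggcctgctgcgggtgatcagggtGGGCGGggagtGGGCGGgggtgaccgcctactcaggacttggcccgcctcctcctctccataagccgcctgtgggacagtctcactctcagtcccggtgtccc
Searched on both strands, the Ptgs2 window held a GC box (GGGCGG) starting at -170, a short CRE motif (TGACG, here on the opposite strand) at 14 and C/EBP matches (TTNNGNAA) at -69 and -25. In Ptges, GC boxes started at -53 and -42, and a C/EBP match at -198 overlapped a STAT match (TTC and GAA parted by any 4 bases) at -197. Neither window held TATAAA or an NF-kB match. Of 32851 mouse promoter windows of the same length, 35.7% held the GC box, 20.8% the short CRE motif, 40.7% the C/EBP match, 6.95% the STAT match, 13.6% TATAAA and 8.46% the NF-kB match. These matches describe the letters and are no evidence of binding.

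**Figure D1:**
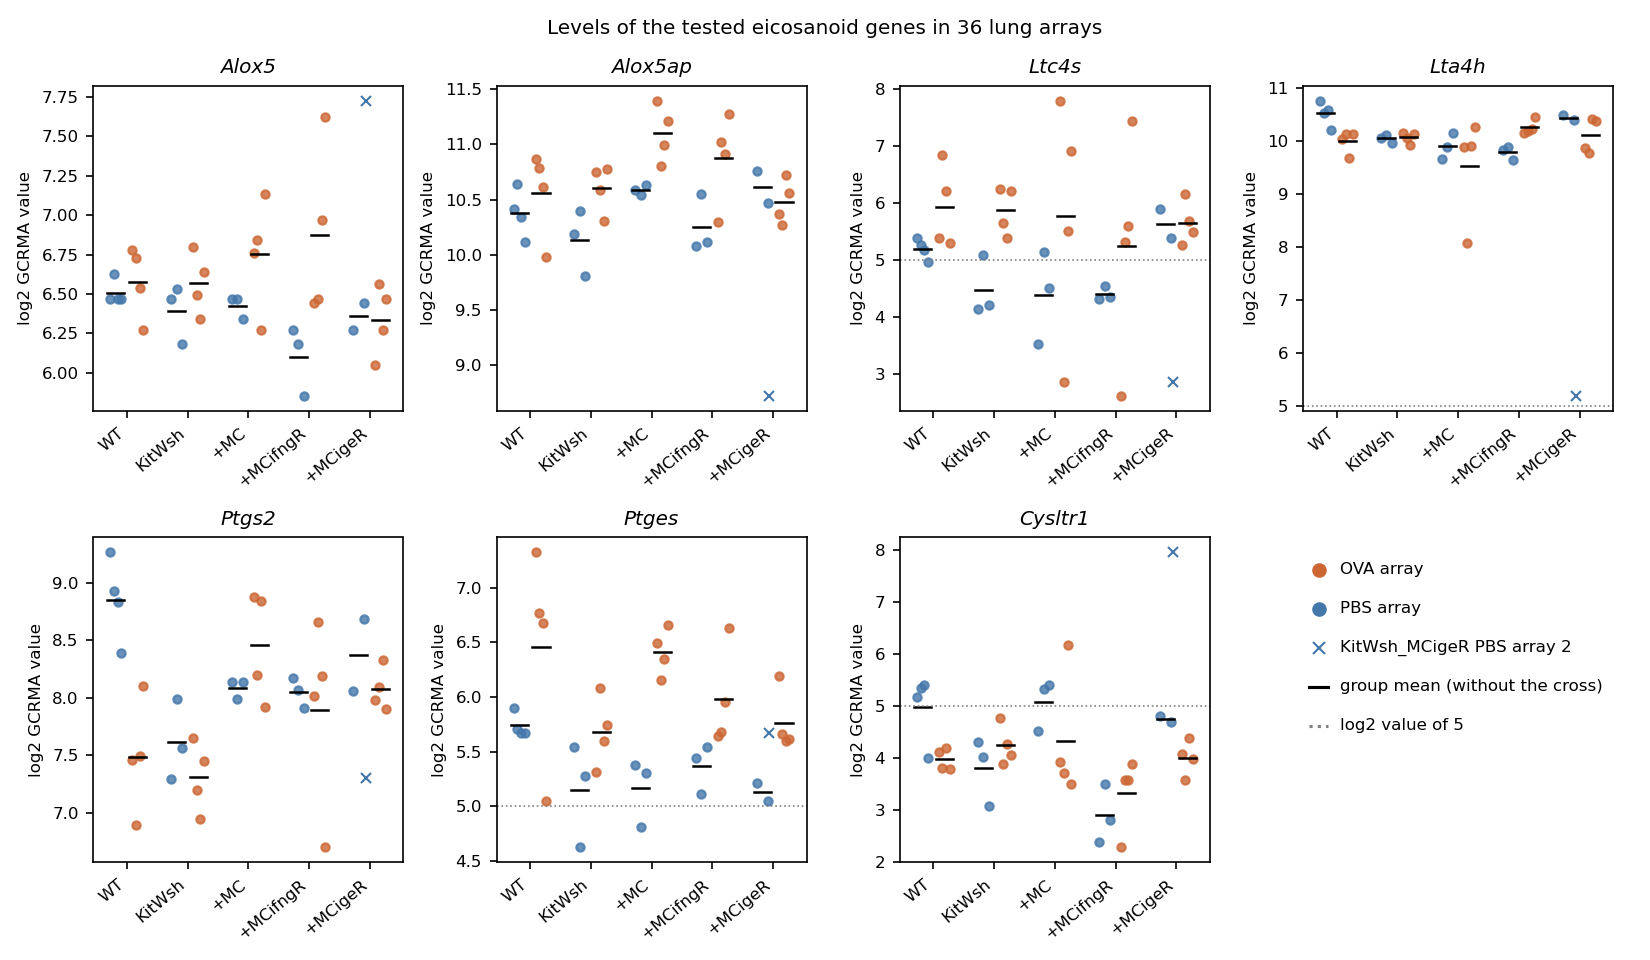
Log2 GCRMA value of each tested gene (vertical axis, scaled per gene) by kind of mouse, with PBS arrays in blue, OVA arrays in orange, group means as black bars and the degraded array as a cross. Ptgs2 sits above 8.39 in the 4 WT PBS arrays and under 8.11 in the WT OVA arrays, and Ptges lies higher in OVA than in PBS arrays of KitWsh_MC mice without overlap.

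Ptgs2 fell after challenge in WT lungs. The 4 WT PBS arrays read 9.27, 8.93, 8.83 and 8.39, and the WT OVA arrays 7.46, 6.89, 7.49 and 8.11. The groups did not overlap, and the fall was -1.37 ± 0.32 (2.58-fold, adjusted p = 0.0298; without the degraded array ± 0.30 and 0.00659). Without WT OVA array 4, whose Kit level goes against its label, the difference was -1.58 with an adjusted p of 0.00647. The call was lost when any of WT OVA arrays 1 to 3 or WT PBS arrays 1 to 3 was left out, where the difference ran from -1.17 to -1.38. The other Ptgs2 probe set never exceeded 5.

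No other kind of mouse showed a called change in Ptgs2. KitWsh lungs read 7.65, 7.20, 6.94 and 7.45 with OVA and 7.29, 7.99 and 7.56 with PBS, a difference of -0.31 ± 0.35 with overlapping groups. KitWsh_MC lungs read 8.88, 8.20, 8.85 and 7.92 against 8.14, 7.99 and 8.13, a difference of 0.37 ± 0.35. Arrays of KitWsh_MCifngR mice read 8.02, 8.66, 8.19 and 6.70 with OVA and 8.17, 8.07 and 7.91 with PBS. Those of KitWsh_MCigeR mice read 7.98, 8.10, 8.33 and 7.91 with OVA and 8.06, 7.30 and 8.69 with PBS. Averaged over the 5 kinds the difference was -0.28 ± 0.15 (adjusted p = 0.211). It was -0.35 ± 0.14 (adjusted p = 0.069) without the degraded array and -0.50 ± 0.13 (adjusted p = 0.00508) without the 4 arrays in doubt, the degraded one and the 3 with high Y-linked genes. The KitWsh response exceeded the WT response by 1.06 ± 0.47, which did not pass the test (adjusted p = 0.701; 0.261 without the degraded array).

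WT PBS lungs stood highest of the 10 groups in Ptgs2 (mean 8.86 ± 0.36, SD, n = 4) and KitWsh OVA lungs lowest (7.31 ± 0.31, SD, n = 4). Between PBS groups, KitWsh was lower than WT by -1.24 ± 0.35, with no overlap of the arrays. This difference missed the threshold over all arrays (adjusted p = 0.0742) and passed without the degraded array (± 0.32, adjusted p = 0.0175). Between OVA groups, KitWsh_MC was higher than KitWsh by 1.15 ± 0.32 (2.22-fold, adjusted p = 0.0222; 0.00462 without the degraded array), and the lowest KitWsh_MC array (7.92) lay above the highest KitWsh array (7.65). That call was lost without KitWsh_MC OVA array 1 or 3 or KitWsh OVA array 2 or 3, with differences of 1.01 to 1.11. WT and KitWsh OVA lungs differed by -0.18 ± 0.32, which did not pass.

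Ptges rose with OVA in KitWsh_MC lungs. The OVA arrays read 6.50, 6.16, 6.34 and 6.66 and the PBS arrays 5.38, 4.81 and 5.30. All 4 OVA arrays lay above all 3 PBS arrays, a fitted rise of 1.25 ± 0.33 (adjusted p = 0.0219; ± 0.32 and 0.00808 without the degraded array). GCRMA sets weak signals to values that recur between arrays, and this probe set reads exactly 5.67 in 3 arrays, so the PBS values lie near background and the size of the rise is not exact. The call was lost without KitWsh_MC OVA array 1 or 4 or PBS array 2 or 3, where the rise was 1.08 to 1.32. A second tested probe set of Ptges rose in the same lungs by 1.05 ± 0.29 (adjusted p = 0.024, among 23091 probe sets). That probe set reads 5.54 in 13 of 36 arrays, and the third never exceeded 5.

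Some markers of other cells moved in the same KitWsh_MC comparison, in the fit without the degraded array. The mast cell proteases Cma1, Cpa3 and Tpsb2 were called higher with OVA (adjusted p = 0.00109, 0.00102 and 0.000373). Cma1 averaged 7.48 with OVA and 4.32 with PBS, and Cpa3 and Tpsb2 stayed under 5 in every PBS array. Of the other mast cell markers Hdc was called higher (adjusted p = 0.0211), and Fcer1a and Kit were not called (0.0733 and 0.347). The club cell genes Cyp2f2 and Scgb3a2 fell by 0.96 ± 0.19 and 0.70 ± 0.14, and the endothelial receptor Tek fell by 1.05 ± 0.26 (adjusted p = 0.00104, 0.00151 and 0.00578). Scgb1a1, also on the club cell list, stood at -0.14 ± 0.12 and was not called (adjusted p = 0.431). The part of these cells in the rise of Ptges was not tested.

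In WT lungs the Ptges OVA arrays read 7.33, 6.77, 6.67 and 5.05 and the PBS arrays 5.90, 5.71, 5.67 and 5.67. Arrays 1 to 3 were above every PBS array and array 4 was below all of them. Over all arrays the difference of 0.71 ± 0.31 did not pass (adjusted p = 0.248). Without array 4, the library whose Kit and Y-linked levels go against its label, it was 1.18 ± 0.25 with an adjusted p of 0.00542. Array 4 decides the WT call.

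KitWsh lungs read 5.31, 6.08, 5.60 and 5.74 with OVA and 5.54, 4.62 and 5.28 with PBS, a Ptges difference of 0.54 ± 0.33 (adjusted p = 0.545). KitWsh_MCifngR lungs read 5.64, 5.68, 5.96 and 6.64 against 5.44, 5.11 and 5.54, a difference of 0.61 ± 0.33 that did not pass although the arrays did not overlap. KitWsh_MCigeR lungs read 6.19, 5.67, 5.60 and 5.61 against 5.21, 5.67 and 5.04, where 5.67 is the degraded array. Averaged over the 5 kinds, Ptges rose by 0.71 ± 0.15 (adjusted p = 0.00148), and every alternative tried and every omission of 1 array kept that call. The second probe set gave 0.37 ± 0.13 (adjusted p = 0.0444) in this mean and -0.06 ± 0.29 in KitWsh lungs.

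Between OVA groups, Ptges was lower in KitWsh than in WT lungs by -0.77 ± 0.31 (adjusted p = 0.735), and by -1.24 ± 0.25 (adjusted p = 0.0139) without WT OVA array 4. It was higher in KitWsh_MC than in KitWsh lungs by 0.73 ± 0.31 (adjusted p = 0.13; 0.0624 without the degraded array and 0.0415 without WT OVA array 4), and the second probe set gave 1.02 ± 0.27 (adjusted p = 0.0169). No difference in the challenge response itself passed the test between KitWsh and WT lungs (-0.18 ± 0.46) or between KitWsh_MC and KitWsh lungs (0.71 ± 0.47), with adjusted p of 1 and 0.634. Without WT OVA array 4 the first was -0.65 ± 0.35 (adjusted p = 0.779).

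Alox5ap, which presents arachidonic acid to 5-lipoxygenase, rose modestly in the mean of the 5 kinds, by 0.46 ± 0.14 (1.38-fold, adjusted p = 0.0199; 0.33 ± 0.10 and 0.0111 without the degraded array), a call kept in every alternative and omission tried. In KitWsh_MC lungs the arrays did not overlap, at 11.39, 10.80, 11.00 and 11.21 with OVA and 10.59, 10.54 and 10.63 with PBS. The difference there was 0.52 ± 0.31 and did not pass. WT lungs overlapped, at 10.87, 10.79, 10.61 and 9.98 against 10.41, 10.64, 10.34 and 10.12. KitWsh lungs read 10.75, 10.59, 10.30 and 10.78 against 10.19, 10.40 and 9.81.

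In KitWsh_MCifngR lungs Alox5ap read 10.29, 11.02, 10.91 and 11.27 against 10.08, 10.55 and 10.12. KitWsh_MCigeR was the kind without a higher OVA mean once the degraded array (8.72) was left out, at 10.37, 10.27, 10.72 and 10.56 against 10.76 and 10.46. OVA lungs of KitWsh_MCigeR mice were lower than those of KitWsh_MC mice by -0.62 ± 0.29 (adjusted p = 0.243), which passed without the degraded array (± 0.20, adjusted p = 0.0257).

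Alox5 itself varied within a narrow range, from 5.85 to 7.62 in 35 arrays and 7.73 in the degraded one. Its groups separated in KitWsh_MCifngR lungs, at 6.44, 6.47, 6.97 and 7.62 with OVA and 6.27, 6.18 and 5.85 with PBS. All 4 OVA arrays were above the PBS arrays, by 0.77 ± 0.27, which did not pass (adjusted p = 0.469; 0.0794 without the degraded array). It passed without the 4 arrays in doubt, at 0.93 ± 0.24 and an adjusted p of 0.047, a fit with 2 OVA arrays of that kind left (6.44 and 7.62). Alox5 reads exactly 6.47 in 7 arrays and 6.27 in 4, so many of its values may lie near background. The mean response of Alox5 was 0.17 ± 0.12, not called, and 0.26 ± 0.10 without the degraded array, called (adjusted p = 0.0388).

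Ltc4s lay close to background, over 5 in 25 of 36 arrays. KitWsh lungs separated, at 6.25, 5.64, 5.37 and 6.20 with OVA and 4.13, 5.08 and 4.21 with PBS, a difference of 1.40 ± 0.85 (adjusted p = 0.532). WT OVA arrays read 5.37, 6.85, 6.21 and 5.29 and WT PBS arrays 5.37, 5.25, 5.18 and 4.95. KitWsh_MC OVA arrays spread from 2.85 to 7.79 and KitWsh_MCifngR OVA arrays from 2.61 to 7.44. Over the 5 kinds the difference of 1.06 ± 0.37 just missed the threshold (adjusted p = 0.0502; 0.066 without the degraded array).

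Lta4h was lower in every WT OVA array than in every WT PBS array, at 10.03, 10.12, 9.68 and 10.13 against 10.75, 10.51, 10.58 and 10.20, but the difference of -0.52 ± 0.62 did not pass (adjusted p = 0.802; ± 0.26 and 0.196 without the degraded array). A second probe set gave -0.53 ± 0.17 in WT (adjusted p = 0.0861; 0.0293 without the degraded array), with OVA arrays at 5.37 to 5.61 and PBS arrays at 5.91 to 6.11. This probe set reads exactly 5.92 in 5 arrays. In KitWsh_MCifngR lungs the order was the opposite, with OVA arrays at 10.14 to 10.45 and PBS arrays at 9.64 to 9.88, a difference of 0.47 ± 0.67 that did not pass. In KitWsh_MCigeR lungs the sign turned on the degraded array, from 1.42 ± 0.67 with it to -0.33 ± 0.32 without it. OVA lungs of KitWsh_MCifngR mice exceeded those of KitWsh_MC mice by 0.72 ± 0.62, which passed without the degraded array (± 0.26, adjusted p = 0.0325) and was 0.24 without KitWsh_MC OVA array 2. The second probe set gave 0.25 ± 0.17 there and did not pass in either fit. For OVA lungs of KitWsh_MC minus KitWsh mice the probe sets had opposite signs. The first gave -0.54 ± 0.62, not called, and the second 0.50 ± 0.17, called without the degraded array (adjusted p = 0.0154).

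KitWsh_MC OVA array 2 read 8.06 in Lta4h against 9.88 to 10.25 in its group, and had a beta-actin difference of 6.23. The degraded array read 5.18. Within groups, over 35 arrays, the beta-actin difference correlated with the level at r = -0.724 for Lta4h and -0.567 for Ltc4s, and between -0.407 and 0.173 for the other 5 genes. The beta-actin difference averaged 1.29 ± 0.12 in WT OVA and 1.37 ± 0.27 in WT PBS lungs (SD, n = 4 each). In KitWsh_MCifngR lungs it averaged 3.38 ± 1.08 (SD, n = 4) with OVA and 3.90 ± 0.29 (SD, n = 3) with PBS. It averaged 3.34 ± 1.93 in KitWsh_MC OVA and 1.74 ± 0.61 in KitWsh OVA lungs (SD, n = 4 each). In PBS lungs of these kinds it averaged 2.92 ± 0.55 and 2.07 ± 0.38 (SD, n = 3 each). Its part in the results was not tested beyond a fit with it as a covariate.

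**Figure D2:**
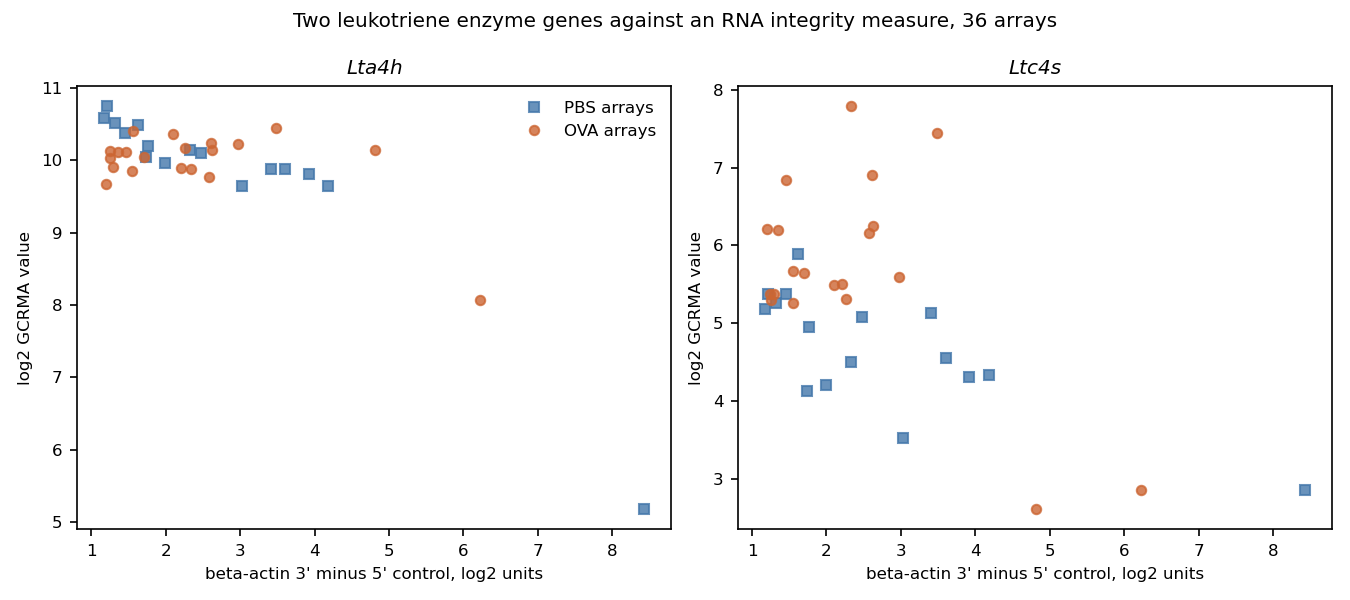
Log2 GCRMA value of Lta4h (left) and Ltc4s (right) against the 3' minus 5' beta-actin control difference of each array, where a higher value is a sign of more degraded RNA. Orange circles are OVA arrays and blue squares PBS arrays, and the arrays at 6.23 and 8.43 hold the lowest Lta4h values, 8.06 and 5.18.

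Cysltr1, the receptor for cysteinyl leukotrienes, exceeded 5 in 7 of 36 arrays, so its values have little order and no fold is given. WT arrays read 4.12, 3.80, 4.19 and 3.80 with OVA and 5.17, 5.35, 5.40 and 4.01 with PBS. The PBS arrays but 1 were above every OVA array, and the difference did not pass (adjusted p = 0.4). A call in KitWsh_MCigeR lungs (lower with OVA, adjusted p = 0.0458) rested on the degraded PBS array at 7.96 and was lost without it (adjusted p = 0.903). Of the prostaglandin D2 synthases, Hpgds never exceeded 2.83, and the brighter Ptgds probe set exceeded 5 in 1 of 36 arrays.

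**Figure D3:**
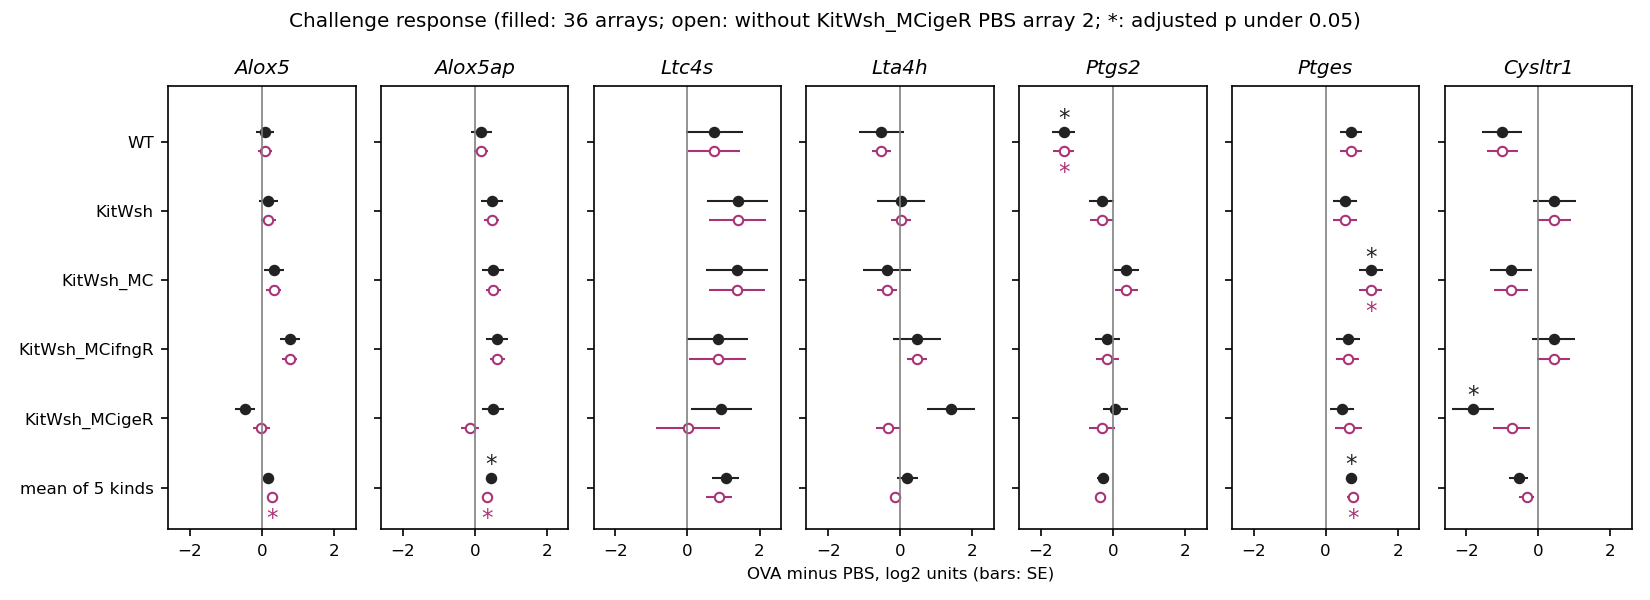
OVA minus PBS difference in log2 units (horizontal axis, bars are SE) of each tested gene in each kind of mouse and in the mean of the 5 kinds. Filled points use 36 arrays and open points leave out the degraded array. Stars mark adjusted p under 0.05, as for Ptgs2 in WT (-1.37) and Ptges in KitWsh_MC lungs (1.25).

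Counted over the 7 tested members and set against all tested genes, 1 was called in WT lungs (Ptgs2, lower), where 1.36% of all genes were called, 9.37% without the degraded array and 5.13% without WT OVA array 4. In KitWsh lungs limma called 0 of 7, with 0 at an unadjusted p under 0.05 (0 and 1 without the degraded array), against a background of 0.621% and 6.57%. In KitWsh_MC lungs 1 of 7 was called (Ptges, higher) in both fits, against 6.52% and 20.5%. KitWsh_MCifngR lungs had 0 of 7, with 1 at an unadjusted p under 0.05 (0 and 2 without the degraded array), against 0.155% and 0.778%, and 1.65% without the 4 arrays in doubt. KitWsh_MCigeR lungs had 1 of 7 (Cysltr1, lower) against 19%, and 0 of 7, also at an unadjusted p, against 0% without the degraded array. The count there was 4 without KitWsh_MCigeR PBS array 1 (against 53.6% of all genes), 2 without its PBS array 3 (against 54%) and 0 without most other single arrays. In the mean of the 5 kinds 2 of 7 were called, both higher, against 16.6% (18.9% without WT OVA array 4), and 3 of 7 against 27.6% without the degraded array. The median difference of the 7 members in that mean was 0.20, and 0.06 over all genes (0.265 and -0.02 without the degraded array).

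Differences between responses gave 0 of 7 calls by limma in all 3 tests and both fits. At an unadjusted p under 0.05 there was 1 for KitWsh against WT (2 without the degraded array), 0 for KitWsh_MC against KitWsh, and 0 for KitWsh_MCifngR against KitWsh_MC (1 without it). The backgrounds were 0.00862% and 0.182% for the first, 0.517% and 5.53% for the second, and 0.0345% and 1.49% for the third. These comparisons share groups with one another and with those above.

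Among OVA lungs, KitWsh against WT gave 0 of 7 calls with 1 at an unadjusted p under 0.05, in both fits, where 0.121% and 0.216% of genes were called, and 0.311% without WT OVA array 4. KitWsh_MC against KitWsh gave 1 of 7 (Ptgs2) in both fits against 8.85% and 31.6%, and 9.38% without WT OVA array 4. KitWsh_MCifngR against KitWsh_MC gave 0 of 7, also at an unadjusted p, against 13.2%, and 1 of 7 (Lta4h) against 36.8% without the degraded array. Without the 4 arrays in doubt the member called there was Ptgs2, at -1.11 ± 0.31 (adjusted p = 0.00819), against 34.8%. That fit kept 2 KitWsh_MCifngR OVA arrays, of which array 1 (8.02) lay within the KitWsh_MC range and array 4 (6.70) under it, and over all arrays the difference was -0.57 ± 0.32 (adjusted p = 0.248). KitWsh_MCigeR against KitWsh_MC gave 0 of 7, with 2 at an unadjusted p, against 2.93%, and 1 of 7 (Alox5ap) against 21% without the degraded array. Among PBS lungs, KitWsh against WT gave 0 of 7, with 1 at an unadjusted p, against 1.18%, and 1 of 7 (Ptgs2) against 7.96%. KitWsh_MC against KitWsh gave 0 of 7, with 0 at an unadjusted p, against 1.2%, and 0 of 7, with 1 at an unadjusted p, against 12%.

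Summed macrophage marker levels were mostly higher in OVA lungs, with single markers going both ways. The summed level of the 6 alveolar macrophage markers (log2) was 14.0 to 14.8 in WT OVA and 13.5 to 13.7 in WT PBS lungs, 13.9 to 14.4 against 12.5 to 13.0 in KitWsh lungs and 14.2 to 14.8 against 13.6 to 13.7 in KitWsh_MC lungs. It was also higher in every OVA array than in every PBS array of the other kinds, the degraded array left out. Chil3 stood 0.70 to 2.23 higher with OVA and was called in KitWsh, KitWsh_MC and KitWsh_MCifngR lungs, in the fit without the degraded array. Siglecf, which eosinophils also carry, was called higher in KitWsh lungs (1.30 ± 0.32) and lower in KitWsh_MC lungs (-1.38 ± 0.32, adjusted p = 0.0034). Marco ranged from -1.34 in KitWsh_MCifngR to 2.64 in KitWsh_MC lungs, and Car4 from -0.09 to 0.32 with no call. The 6 measured markers of recruited monocytes and macrophages reached 12.7 to 13.1 in KitWsh_MC OVA lungs against 11.4 to 11.5 with PBS, without overlap, and 11.3 to 12.7 against 10.6 to 11.1 in KitWsh lungs, also without overlap. They overlapped in WT (10.9 to 13.3 against 11.2 to 11.6), KitWsh_MCifngR (10.4 to 12.4 against 10.7 to 11.1) and KitWsh_MCigeR lungs (12.1 to 13.1 against 11.1 to 12.4). Of the single markers, Trem2 and Gpnmb were called higher in WT lungs without the degraded array (adjusted p = 0.0244 and 0.0256). Ms4a7, C1qa and C1qb were not called there, and Ccr2 stood at -0.14. In KitWsh_MC lungs Ms4a7, Trem2, Gpnmb and C1qb were called higher and C1qa was not. C1qb was also called higher in KitWsh lungs. In the same summed form, the 4 measured neutrophil markers reached 13.18 to 15.12 in KitWsh_MCifngR OVA lungs against 12.35 to 12.96 with PBS. In KitWsh_MCigeR lungs they were lower with OVA, at 11.79 to 12.44 against 12.96 to 13.69, the degraded array left out. In WT, KitWsh and KitWsh_MC lungs their OVA and PBS levels overlapped. Tested singly without the degraded array, S100a8, S100a9, Cxcr2 and Csf3r were not called in any kind. The part of these lists in the changes of Alox5, Alox5ap, Ltc4s and Ptges was not tested.

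The genes whose levels ran most like each member over 35 arrays are given as a description. The arrays share treatment groups, so such a correlation also holds the group differences. For Ptges they were Il1rn, the interleukin-1 receptor antagonist (r = 0.881), Orm1 (0.86) and Chil1 (0.857). For Alox5ap they were the chemokine receptor Ccr1 (0.83), Mcemp1 (0.82) and Clec4d (0.816), and for Alox5 they were Apobr (0.817), Cd33 (0.8) and Cideb (0.762). Ltc4s ran with the lysosomal protease Ctsd (0.861), the macrophage marker Cd68 (0.848) and Plet1 (0.834). Ptgs2 had the weakest likeness, with Cd163 (0.75), Mmp3 (0.737) and Ugp2 (0.696). The nearest genes to Lta4h were Mrpl42 (0.893), Rsl1d1 (0.892) and Crnkl1 (0.887), and to Cysltr1 Csnk2a1 (0.876), Endod1 (0.871) and Nsa2 (0.866). Among the members, Alox5 and Alox5ap gave 0.662, and 0.549 with the group means taken out, and Ptgs2 and Ptges gave -0.227 and -0.541.

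Of 61 other genes of these pathways, 57 were measured and 39 tested. In the mean of the 5 kinds, 4 rose and 1 fell (4 and 6 without the degraded array). These are 12.8% of the tested genes, and 26.3% of the 38 still tested without that array. Both are under the 16.6% and 27.6% over all genes, so in this mean the list did not stand out by its count. In KitWsh_MC lungs 1 rose and 1 fell, 5.13% against 6.52% over all genes. Without the degraded array 6 rose and 6 fell there, 31.6% against 20.5%, which is above the share over all genes. In the fit to all arrays the median difference of the 39 was 0.04 in the mean of the 5 kinds and 0.14 in KitWsh_MC lungs. Tbxas1, thromboxane synthase, rose by 1.04 ± 0.19 (adjusted p = 0.000469) in the mean and by 1.68 ± 0.42 (adjusted p = 0.0153) in KitWsh_MC lungs, where OVA arrays averaged 7.55 ± 0.41 (SD, n = 4) and PBS arrays 5.88 ± 0.14 (SD, n = 3). Tbxas1 reads exactly 5.98 in arrays of several groups, KitWsh_MC PBS among them. Its PBS values may therefore lie near background, and these sizes are not exact. Among prostanoid receptors, 8 of 10 were tested. Ptgfr, the prostaglandin F receptor, fell by 0.95 ± 0.15 in the mean (adjusted p = 0.000169) and was called lower in KitWsh_MC lungs (adjusted p = 0.0208), from a PBS mean of 6.03 to OVA values all under 5, a difference of at least 1.03 with those values set to 5. The fitted mean over the kinds is likewise not exact. Ptger4, a prostaglandin E2 receptor, rose by 0.62 ± 0.14 in the mean (adjusted p = 0.00308). Without the degraded array, 3 receptors were called higher and 1 lower in KitWsh_MC lungs. There Ptgir averaged 8.03 with OVA and 6.51 with PBS, and Ptger3 averaged 5.71 with OVA against PBS values all under 5. Of the 6 tested other prostanoid synthases, 2 were called higher and 2 lower in that comparison. Ptges2 averaged 7.11 with OVA and 6.33 with PBS.

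Of the 8 tested genes for releasing or handling arachidonic acid, Acsl4, which links arachidonic acid to coenzyme A, rose by 0.46 ± 0.09 in the mean (adjusted p = 0.000684). Among 12 tested genes of eicosanoid breakdown and export, Cyp4f18, a leukotriene B4 hydroxylase, rose by 0.65 ± 0.21 (adjusted p = 0.0304). Without the degraded array, Hpgd, which inactivates prostaglandins, fell by 0.33 ± 0.12 (adjusted p = 0.0394) and the prostaglandin transporter Slco2a1 by 0.27 ± 0.09 (adjusted p = 0.0237). That fit also called Cbr2 (-0.24 ± 0.07), Mgst1 (-0.21 ± 0.06) and Alox12 (-0.40 ± 0.15) lower in the mean, while over all arrays Cbr2 stood at 0.20 ± 0.34 and Mgst1 at 0.05 ± 0.21. The 5 listed leukotriene receptors had none tested. Within WT and KitWsh_MCifngR lungs limma called 0 of the other pathway genes tested, in either fit. Over all genes the shares were 1.36% in WT and 0.155% in KitWsh_MCifngR lungs. They were 9.37% and 0.778% without the degraded array. KitWsh lungs had 0 calls (against 0.621%), and 2 rose and 1 fell without that array (7.89% against 6.57%). In KitWsh_MCigeR lungs 3 rose and 2 fell (12.8% against 19%), and 0 were called without that array (against 0%).

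**Figure D4:**
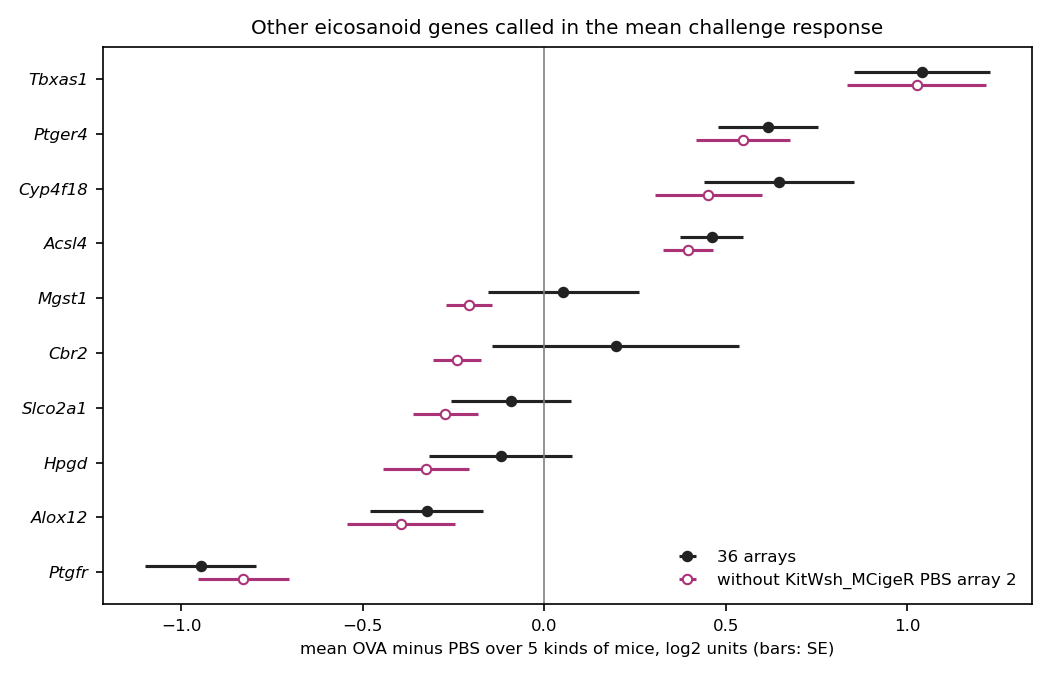
Mean OVA minus PBS difference over the 5 kinds in log2 units (bars are SE) of the other eicosanoid genes called in the fit to 36 arrays (filled) or without the degraded array (open). Tbxas1 at 1.04 is the highest and Ptgfr at -0.95 the lowest.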

How the data were processed

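The authors deposited log2 intensities, per the submitters' processing notes the output of GCRMA (version not given in the sources used here). This method corrects background by probe sequence, normalises arrays by quantiles and summarises probe sets, so low values sit at a model-set floor. The 45101 probe sets included 64 controls, left out. The platform annotation named 1 gene for 34945 of the probe sets that are not controls. It named several for 932 and none for 9211, and these counts are not a full split of the set. A gene's probe set with the highest mean stood for it. Genes over 5 in at least 3 arrays were tested.

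Group means of the 10 groups were fitted in limma 3.58.1 under R 4.3.3 (lmFit, then eBayes, with 26 residual degrees of freedom), with 15 comparisons and two-sided Benjamini-Hochberg adjustment, tested on simulated data. The number of arrays limits the precision. Named genes were all members, up to 4 called genes of each pathway list with the smallest adjusted p, and the 3 tested genes most like each member. The members and lists were chosen with earlier results of these data known. Alternatives were another normalisation, filter or probe-set rule, a beta-actin covariate, array weights and arrays left out. Promoters came from RefSeq (GRCm38.p6), which gave windows for 8 of the 10 members.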

Additional observations from a re-analysis of the deposited data

Results flagged for a closer look

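In groups of 4 arrays, a value was singled out where its gap to the nearest other value exceeded Dixon's critical share of the group's range. Over the 42 sets of 4 arrays examined, 6 were. Chance gives about 1 in 20 for normally distributed values. Several of these sets hold values that recur exactly or lie under 5, so the count cannot be set against that share. Lta4h read 8.06 in KitWsh_MC OVA array 2, next to 9.88, on the array with a beta-actin difference of 6.23. Cysltr1 read 6.18 in KitWsh_MC OVA array 3, next to 3.92, and 4.01 in WT PBS array 4, next to 5.17. Ptges read 6.19 in KitWsh_MCigeR OVA array 1, next to 5.67, and 5.90 in WT PBS array 1, next to 5.71. Alox5 read 6.63 in WT PBS array 2, next to 6.47.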

How the results depend on the processing

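No paired analysis was possible because the labels number the arrays 1 to 36 with no number shared between groups. The counts of members called, of 7, changed as follows, each with the share of all features called in that fit. With array weights they were 5 in WT (44%), 3 in KitWsh (39.8%), 4 in KitWsh_MC (31.4%), 4 in KitWsh_MCifngR (17.5%) and 0 in KitWsh_MCigeR lungs (0.879%), and 6 in the mean response (49.7%). With weights they were also 3 (21.7%), 1 (19.1%) and 1 (21.7%) for the response differences KitWsh against WT, KitWsh_MC against KitWsh and KitWsh_MCifngR against KitWsh_MC. For OVA lungs the weights gave 1 for KitWsh against WT (7.25%), 3 for KitWsh_MC against KitWsh (30.2%), 1 for KitWsh_MCifngR against KitWsh_MC (36.6%) and 3 for KitWsh_MCigeR against KitWsh_MC (14.6%), and for PBS lungs 6 for KitWsh against WT (41.8%) and 2 for KitWsh_MC against KitWsh (33.8%). Without the 4 arrays in doubt the counts were 2 in WT (18.9%), 1 in KitWsh_MCifngR (1.65%), 0 in KitWsh_MCigeR (0%) and 4 in the mean response (31.3%). In OVA lungs they were then 1 (1.31%), 3 (33.9%), 1 (34.8%) and 2 (23.1%) in the order above, and 1 (9.55%) for PBS KitWsh against WT.

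Averaging the probe sets of a gene gave 0 in WT (2.12%), where Ptgs2 was then -0.63 (adjusted p = 0.177) because its second probe set sits at the floor, 3 in the mean response (17.9%), as did median centring (15.4%), and Ptgs2 between OVA lungs of KitWsh_MC and KitWsh mice was 0.51 (adjusted p = 0.197). KitWsh_MCigeR lungs had 0 with that mean (0.0491%), with no filter (0.033%), with every probe set tested (2.58%) and with the beta-actin covariate (0%). The covariate gave 2 (15.3%), 1 (30.1%) and 1 (4.86%) for OVA KitWsh_MC against KitWsh, KitWsh_MCifngR against KitWsh_MC and KitWsh_MCigeR against KitWsh_MC, and 1 (6.39%) for PBS KitWsh against WT, as did quantile normalisation for the last (1.25%). Every probe set tested gave 2 (9.61%) for OVA KitWsh_MC against KitWsh.

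Leaving out 1 array at a time gave 0 to 2 in WT, 0 to 1 in KitWsh_MC, 0 to 4 in KitWsh_MCigeR and, in OVA lungs, 0 to 1, 0 to 2, 0 to 1 and 0 to 1 in the order above, with 0 to 1 for PBS KitWsh against WT. The WT count was 0 without any 1 of WT OVA arrays 1, 2 and 3 or PBS arrays 1, 2 and 3, and 2 without WT OVA array 4. The KitWsh_MCigeR count was 4 without its PBS array 1, 2 without its PBS array 3 and 0 without most other single arrays. The PBS count for KitWsh against WT was 1 without WT PBS array 4, KitWsh_MCifngR OVA array 4 or the degraded array. The 10 member differences called in the fit to all arrays or without the degraded array were followed through all these alternatives. None reversed, but they were picked because they were called. Others did reverse when the degraded array was left out. In KitWsh_MCigeR lungs Alox5ap went from 0.50 to -0.13 and Lta4h from 1.42 to -0.33. The cause of these changes was not tested. In KitWsh_MCigeR lungs the median difference over all genes was 0.38, and 0.09 after quantile normalisation and 0.48 after median centring. Centring moved that median from 0.01 to 0.12 for KitWsh_MC lungs, from -0.09 to -0.19 and 0.11 to 0.25 for the first 2 response differences and from -0.01 to -0.11 for the third, as quantile normalisation did for the third (-0.11). Quantile normalisation also moved it from 0.18 to 0.06 for OVA KitWsh_MCifngR against KitWsh_MC. Signals near the floor limit Ltc4s, Cysltr1, Hpgds and Ptgds, and values that recur exactly between arrays limit Alox5, Ptges, the second Lta4h probe set and Tbxas1.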

Other observations

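KitWsh_MCifngR OVA array 4 read highest in its group for Alox5 (7.62), Alox5ap (11.27), Ltc4s (7.44), Lta4h (10.45) and Ptges (6.64) and lowest for Ptgs2 (6.70). WT OVA array 4 read lowest in its group for Alox5 (6.27), Alox5ap (9.98), Ltc4s (5.29) and Ptges (5.05) and highest for Ptgs2 (8.11). Probe sets of one gene did not always run together over 35 arrays: r was 0.785 for the 2 tested Ptges probe sets and 0.07 for the 2 tested Lta4h probe sets.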
